A study of Lobosphaera incisa with 32 samples.

Results

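The genes described here are 100 genes of the green microalga *Lobosphaera incisa* whose level was lowest 12 h after the removal of nitrogen (N) and was again within about 2-fold of its starting level at 72 h. They were chosen from measured values. Of the 16722 genes in the tables, 5793 had at least 10 FPKM (fragments per kilobase of gene, scaled to the depth of the condition) in the replete culture at 0 h and stayed within 1 log2 unit, a 2-fold change, of that level in both 72 h conditions, with 1 FPKM added to each value. With nothing added, 2 of the 100 members lay outside 2-fold at 72 h. These 5793 are called the kept genes. A score was computed for each as the log2 ratio of its level at 12 h to the lowest of its other 3 levels, with 1 FPKM added to each, and the 100 genes with the lowest scores were taken. The dip at 12 h and the return at 72 h are therefore properties of the choice, and their sizes are given as a description.

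*L. incisa* is an oleaginous alga known for storing arachidonic acid in the triacylglycerols of its lipid droplets. When N is withdrawn, green algae of this kind stop dividing, reduce the photosynthetic apparatus and ribosomes as N reserves, recycle cell material by autophagy and direct carbon into storage lipids. Parts of this response set in within hours and others build up over days. The tables give the members as gene numbers without product names, so no function is attached to any member in what follows.

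All cultures were the strain SAG 2468 in a modified BG-11 medium at 25 °C with 2% CO2, and those used for RNA were axenic. The replete control (0 h) was taken in logarithmic growth at a photon flux of 75 µmol m-2 s-1, called normal light (NL). The other 3 conditions were N-deprived for 12 h under 150 µmol m-2 s-1, called high light (HL), for 72 h under NL and for 72 h under HL. The 12 h culture thus differed from the control in N, in time and in light, which cannot be told apart, and the only replete sample was taken at 0 h.

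Each condition had 8 libraries, from 2 biological replicates with 4 technical replicates each, and the FPKM tables hold 1 value per condition over these libraries. No spread between cultures can be taken from them, so no test was made and no difference below is compared with replicate error. The intervals given are 95% intervals of the quantification program and cover counting and read assignment only. In units of 1e+06, the expected counts summed to 149 at 0 h, 286 at 12 h, 330 at 72 h under NL and 215 at 72 h under HL, so the replete control was the shallowest condition.

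The members had a median level of 28.1 FPKM at 0 h, 13.9 FPKM at 12 h, 35.7 FPKM at 72 h under NL and 31.5 FPKM at 72 h under HL. In the same order the medians of the kept genes were 22.6, 26.8, 22.9 and 23.2 FPKM. The median log2 ratio of 12 h to 0 h was -1.09 for the members and 0.15 for the kept genes. Over the 14043 genes with at least 1 FPKM at 0 h or 12 h that median was 0.20, and relative to this value the median of the members was -1.29. What produced the 0.20 was not tested. As the choice required, 12 h was the lowest of the 4 levels in 100 of 100 members, against 19.5% of the kept genes. Among the kept genes 12 h was the highest FPKM level more often than any other condition, in 43.8%. This depends on the scale. On the authors' mean normalized counts, described below, 12 h was below each other condition in 36.8% of the kept genes. Their median log2 ratio of 12 h to 0 h was then -0.11.

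**Figure D1:**
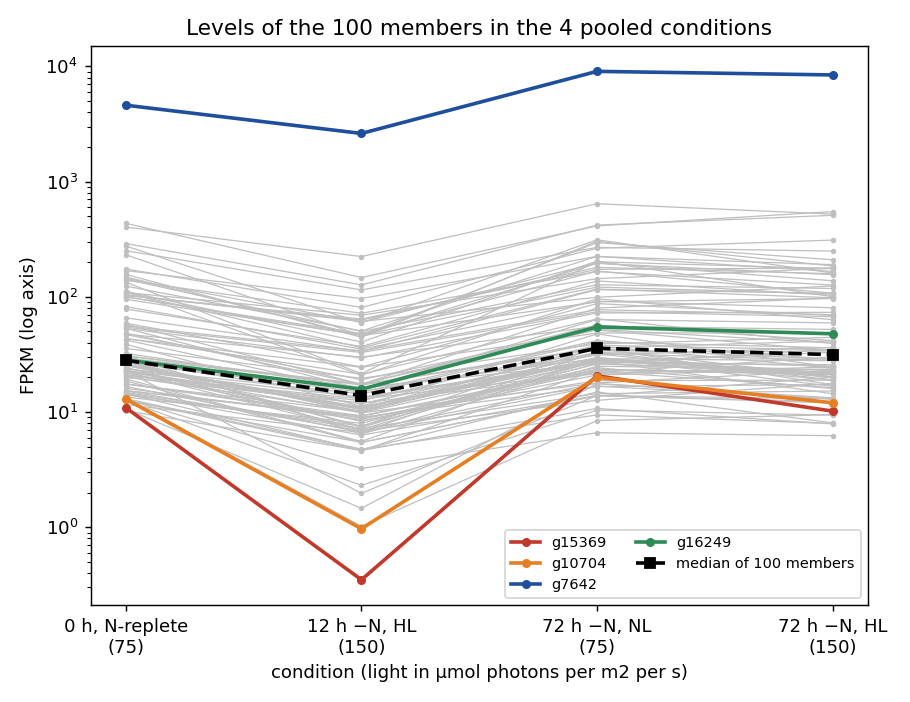
Level of each of the 100 members in FPKM (log axis) in the 4 pooled conditions, with 1 line per gene, 4 members in colour and the median of the members as a dashed line; lines join the values of a gene and are no time course between the last 2 conditions. The median was 28.1 FPKM at 0 h, 13.9 at 12 h, 35.7 at 72 h under NL and 31.5 at 72 h under HL, and 1 gene, g7642, lay more than 10-fold above the rest at 0 h.

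The size of the dip spanned a wide range. The median member was 1.96-fold lower at 12 h than in its lowest other condition, and the members ranged from 1.57-fold to 29.1-fold. With 1 FPKM added, 42 of the 100 members were at least 2-fold lower than in their lowest other condition, and these were the only such genes, 0.725% of those kept. The count depends on the scale: it was 67 under median-of-ratios scaling and 74 after the median ratio of all genes was subtracted. Both settings lower the 12 h value of every gene relative to the other conditions. The share of the kept genes under them was not computed, so nothing is read from the rise. Against 0 h alone, 58 members were at least 2-fold lower, where the background was 1.71% of the kept genes. Scores of -2 or lower were found in 7 members. The list ended within a continuous run of scores: the last gene inside had 13.1, 4.75, 9.44 and 7.96 FPKM at 0 h, 12 h, 72 h NL and 72 h HL and a score of -0.640, and the first gene outside had 41.8, 26.6, 45.7 and 43.1 FPKM and a score of -0.637.

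**Figure D2:**
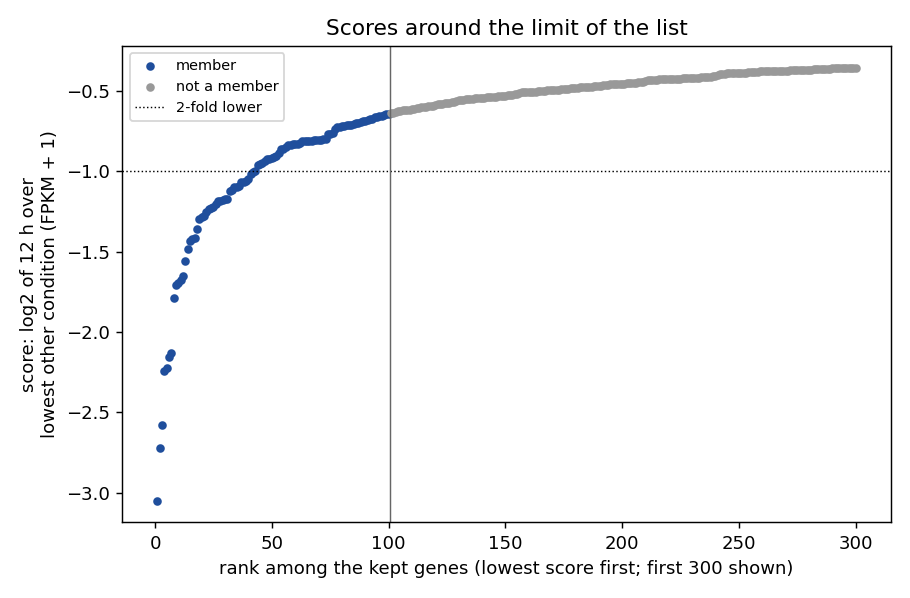
Score of the first 300 kept genes by rank (log2 of 12 h over the lowest other condition, 1 FPKM added), with members in blue and other genes in grey; the vertical line marks the end of the list and the dotted line a 2-fold lower level. The scores went from -3.05 at the first rank to -0.64 at the limit without a step there.

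The deepest dip belonged to g15369, a gene of 1046 bases with 1 transcript. Its level was 10.9 FPKM at 0 h (interval 10.4 to 11.4), 0.35 FPKM at 12 h (0.290 to 0.426), 20.6 FPKM at 72 h under NL (20.1 to 21.1) and 10.2 FPKM at 72 h under HL (9.77 to 10.6). Its 12 h level was 31.1-fold below 0 h and 29.1-fold below 72 h under HL, and rested on 104 expected counts, the fewest of any member. The authors' mean normalized counts, a second measure that was scaled within each pair of conditions, gave 611 at 0 h and 19.4 at 12 h, a 31.6-fold difference. Both measures thus placed g15369 far below its other levels at 12 h, and its levels at 0 h and 72 h under HL were close to each other.

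The second lowest score belonged to g10704, a gene of 604 bases with 1 transcript, and there the 2 measures differed. Its pooled level was 13.0 FPKM at 0 h (interval 10.01 to 16.3), 0.97 FPKM at 12 h (0.175 to 2.75), 20.0 FPKM at 72 h under NL (17.7 to 22.1) and 12.0 FPKM at 72 h under HL (9.42 to 14.8). By FPKM the 12 h level was 13.4-fold below 0 h. By the authors' mean normalized counts it was 1.33-fold below 0 h, at 450 against 600, and in the comparison with 72 h under HL it was the higher of the pair, at 590 against 547. The upper end of its 12 h interval was 15.7 times the lower end, where the next widest member had a ratio of 1.47 and the median member 1.04.

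The pooled expected count of g10704 at 12 h was 160, which is 0.354 of its mean normalized count, whereas the median member had 4.70 pooled counts for each mean normalized count and the next lowest had 2.68. The median of the 5793 kept genes was 4.85, and 1 of them, this one, departed from it by more than 3-fold. What produced the difference was not tested, and the depth of its dip depends on which of the measures is read.

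The 5 members ranked 3 to 7 had 12 h levels from 1.02 to 46.2 FPKM, at 396 to 11293 expected counts, and were 4.54-fold to 8.26-fold below their lowest other condition. On the mean normalized counts their log2 differences between 12 h and the lowest other condition were -3.20 to -2.31, so all 5 were low at 12 h by both measures. Dips of at least 2-fold were not limited to weakly expressed genes. Of the 23 members with 100 FPKM or more at 0 h, 14 were at least 2-fold lower at 12 h, and the median score of the 23 was -1.18. Of the 53 members under 30 FPKM at 0 h, 17 were at least 2-fold lower, and the median score of the 53 was -0.84. No kept gene outside the list was 2-fold lower, so the 14 and 17 are all such kept genes of their class. Their share of the kept genes in each class was not computed. Among the kept genes 63.3% were under 30 FPKM at 0 h. Adding 1 FPKM shortens the score of low genes, so the classes are not compared.

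Over all 100 members the median log2 ratio of 12 h to 0 h was -1.24 on the mean normalized counts, where the kept genes had -0.11. The centre of the kept genes thus lay 0.25 lower than on FPKM. Relative to their own centre the members were at -1.24 on FPKM and -1.13 on the mean normalized counts. The mean normalized count at 12 h was below that at 0 h in 100 members. It was below each other condition in 99, with g10704 as the exception, against 36.8% of the kept genes. At least 2-fold below each other condition were 68 members, against 1.19% of the kept genes. Since both measures come from the same cultures, and FPKM at 12 h chose the members, this describes how far the choice depends on the scale. By the intervals of FPKM, 12 h was wholly below the other 3 conditions in 100 of 100 members, as in 15.4% of the kept genes, which at this depth is a statement on counting alone.

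**Figure D3:**
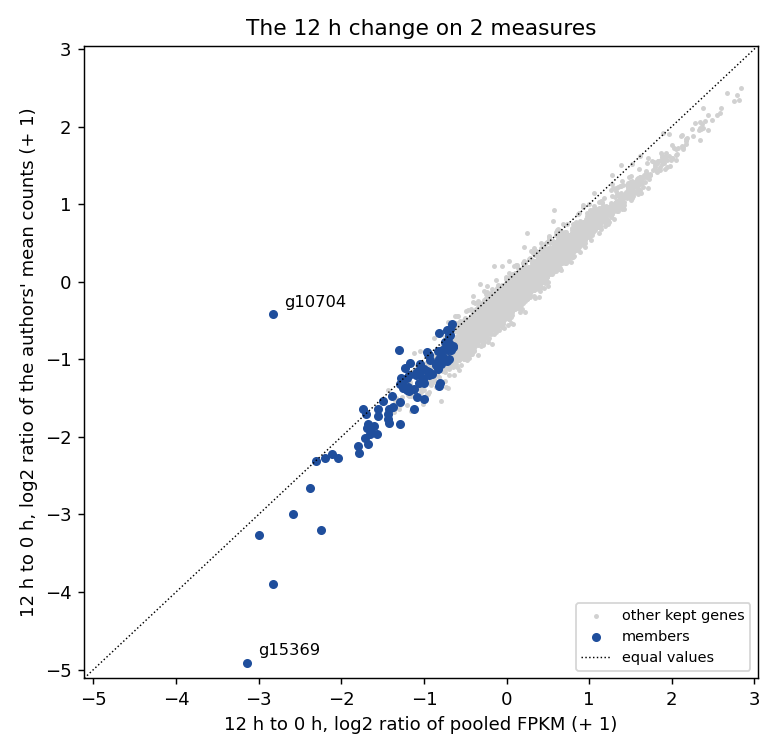
Log2 ratio of 12 h to 0 h from the pooled FPKM (horizontal, 1 FPKM added) and from the authors' mean normalized counts (vertical, 1 added) for the 100 members (blue) and the other kept genes (grey), with equal values on the dotted line. g10704 had -2.82 on FPKM and -0.41 on the mean counts, and g15369 had -3.14 and -4.91, where adding 1 to its low FPKM shortens the horizontal value.

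At 72 h the members were spread on both sides of their replete level, within the limits set by the choice. Both 72 h levels were above 0 h in 46 members, only the NL level in 30, only the HL level in 8, and neither in 16. Among the kept genes these shares were 39.4%, 8.10%, 9.22% and 43.3%. Counts and shares are on FPKM and depend on its scale. For example, g5264 was below 0 h under both lights on FPKM, at 27.7 at 0 h, 26.9 under NL and 25.8 under HL. In TPM, a unit scaled to a fixed total, it was above 0 h under both, at 41.3, 48.7 and 44.4. The 46 members above 0 h under both lights had median levels of 45.4 FPKM at 0 h, 18.6 FPKM at 12 h, 56.2 FPKM at 72 h under NL and 50.4 FPKM at 72 h under HL. The 16 members below 0 h under both lights had medians of 22.9, 6.68, 20.1 and 14.7 FPKM in that order, and the median of their own folds of 0 h over 12 h was 3.24, against 1.81 in the 46. This order follows in part from the score, which measures the dip from the lowest of the other 3 levels.

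The 2 members with the highest mean log2 ratio to 0 h over both 72 h conditions, with 1 FPKM added, were g7642 and g16249, although under 1 light alone other members exceeded g16249. The level of g7642, a gene of 662 bases, was 4601.84 FPKM at 0 h, 2618 FPKM at 12 h, 9054 FPKM at 72 h under NL and 8427 FPKM at 72 h under HL. It was the most abundant member in every condition, 10.6-fold above the next at 0 h and 15.4-fold at 72 h under HL. Among all 16722 genes it ranked 7 by FPKM at 0 h, 4 at 12 h and 1 in both 72 h conditions. Its dip was 1.76-fold below 0 h, on 475093 expected counts at 12 h, and its FPKM levels at 72 h were 1.97-fold and 1.83-fold above 0 h under NL and HL. In TPM it had 6864 at 0 h, 16398 at 72 h under NL and 14528 at 72 h under HL, more than 2-fold above 0 h under both lights. A gene that already stood among the most abundant in the replete culture was thus lower at 12 h and highest of all at 72 h.

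The gene g16249, of 772 bases, had the same order at lower levels, with 28.3 FPKM at 0 h, 15.8 FPKM at 12 h, 54.7 FPKM at 72 h under NL and 47.8 FPKM at 72 h under HL. On FPKM it was 1.79-fold below 0 h at 12 h and 1.93-fold and 1.69-fold above it at 72 h under NL and HL. In TPM it had 42.2 at 0 h, 99.1 at 72 h under NL and 82.4 at 72 h under HL, more than 2-fold above 0 h under NL alone.

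In TPM, the share of all transcripts that the members held, scaled to a fixed total, they summed to 16304 at 0 h, 8978 at 12 h, 31361 at 72 h under NL and 26988 at 72 h under HL. The gene g7642 made up 42.1% of the sum at 0 h and 53.8% at 72 h under HL. Without it the other 99 members summed to 9440, 4521, 14962 and 12460 TPM, so the sum at 12 h was 1.82-fold below 0 h with g7642 and 2.09-fold below without it.

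On FPKM, the highest of the 4 levels was that at 72 h under NL in 62 members, at 72 h under HL in 22 and at 0 h in 16. The shares of the kept genes were 19.0%, 15.5% and 21.8%. Another 43.8% of the kept genes were highest at 12 h, where the choice allows no member. The shares of the kept genes are therefore lower for that reason alone, and no excess of members is read from them. The NL level exceeded the HL level in 74 of the 100 members, against 48.1% of the kept genes, and the median log2 difference of HL minus NL was -0.19 for the members and 0.01 for the kept genes. The NL level was at least 1.5-fold above the HL level in 20 members, where the background was 2.31% of the kept genes. In the other direction there was no member at least 1.5-fold higher under HL, and the background was 3.69%. The difference between lights ranged from -1.02 to 0.51 on the log2 scale. Both 72 h levels entered the choice, and the light at 12 h was HL, so nothing beyond this description is read from it.

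**Figure D4:**
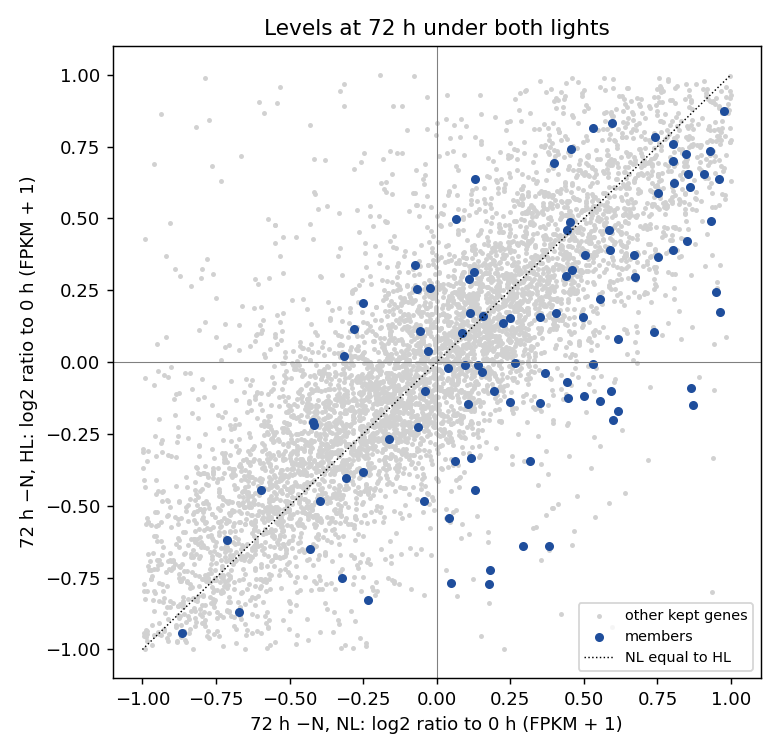
Log2 ratio to 0 h at 72 h under NL (horizontal) and under HL (vertical), with 1 FPKM added, for the 100 members (blue) and the other kept genes (grey); both axes end at 1 log2 unit because the choice does. Of the members, 74 lie below the dotted line of equal levels, where NL was higher than HL.

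Gene length and transcript number played no part in the choice. The median length of the members was 1742 bases, with a range from 505 to 12682, and that of the kept genes was 1777 bases. More than 1 transcript was annotated for 25 members, against 21.7% of the kept genes. In 21 of these, at least 2 transcripts had 1 FPKM or more in each of the other 3 conditions, and 48 of their 51 such transcripts were lowest at 12 h. In 18 of the 21 every such transcript was lowest at 12 h. The level of a gene is the sum over its transcripts, so these counts follow in part from the choice. The same shares were not computed for the kept genes. The share of the main transcript in its gene differed between conditions by a median of 6.99 percentage points, taken as highest minus lowest.

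In g15391, named after its values were seen, that difference was 59.7 percentage points, and the dip and the return belonged to different transcripts. The whole gene had 149 FPKM at 0 h, 46.0 FPKM at 12 h, 90.4 FPKM at 72 h under NL and 96.6 FPKM at 72 h under HL. Its transcript t2 had 148 FPKM at 0 h, 43.3 FPKM at 12 h, 36.1 FPKM at 72 h under NL and 43.1 FPKM at 72 h under HL, and so did not return. Transcript t1 went from 0.46 FPKM at 0 h and 2.27 FPKM at 12 h to 39.9 and 43.2 FPKM at 72 h under NL and HL. The share of t2 in the gene was 99.6% at 0 h, 94.2% at 12 h, 39.9% at 72 h under NL and 44.6% at 72 h under HL. Reads shared by transcripts of 1 gene are divided by estimation, so the split is less certain than the total. It was the only one of the 25 members with more than 1 transcript whose main transcript was not lowest at 12 h.

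**Figure D5:**
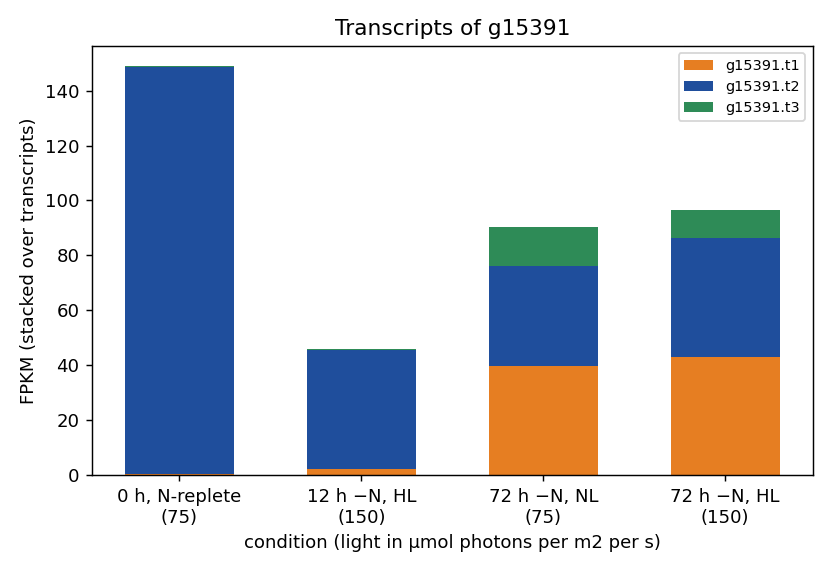
FPKM of the 3 transcripts of g15391 in the 4 pooled conditions, stacked so that the bar height is the sum over transcripts. Transcript t2 makes up nearly the whole bar at 0 h (148 FPKM) and 12 h (43.3 FPKM), and t1 and t3 appear beside it at 72 h.

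A gene number next to that of another member was carried by 5 members, in 2 runs, which are named here after their values were seen. The members were 100 of 16722 genes, and the number to be met without any tie was not computed. In the run g9988, g9989 and g9990 the levels moved in parallel. The levels of g9988 were 13.5, 7.97, 26.2 and 21.8 FPKM at 0 h, 12 h, 72 h NL and 72 h HL. Those of g9989 were 17.5, 10.1, 32.3 and 28.1 FPKM, and those of g9990 were 23.7, 14.3, 40.5 and 36.1 FPKM. All 3 were 1.65-fold to 1.74-fold below 0 h at 12 h and above 0 h under both lights at 72 h. Of the genes numbered just outside the run, g9987 was higher at 12 h than at 0 h, with a log2 ratio of 0.47. The other, g9991, had the same order of levels as the run at 3.59, 2.94, 5.6 and 4.6 FPKM, with a smaller log2 ratio of -0.22 at 12 h and a level under the minimum of 10 FPKM at 0 h.

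In the pair g14052 and g14053 the levels were 25.9 and 20.3 FPKM at 0 h, 11 and 10.2 FPKM at 12 h, 28.2 and 29.8 FPKM at 72 h under NL, and 20.3 and 20.2 FPKM at 72 h under HL. Both returned further under NL than under HL. The genes numbered just outside the pair, g14051 and g14054, were also lowest at 12 h, with smaller log2 ratios to 0 h of -0.24 and -0.32. Positions in the genome were not used here, so a shared number range is all that ties these genes. Over the 174 expressed genes numbered next to a member without being one, the median log2 ratio of 12 h to 0 h was -0.06 and 52.3% were below 0 h, while over all 14043 expressed genes the median was 0.20 and 37.0% were below 0 h.

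Of the 31 genes that the study names, 17 were kept and 0 were members, where members made up 1.73% of the kept genes, so nothing is read from the 0. These are the 22 autophagy-related (ATG) genes, whose products build the autophagosome, and 10 genes measured by qRT-PCR, with ATG8 in both lists. Of the 22 ATG genes, 12 were among the kept genes, and of these 1 had a score below 0, as 19.5% of the kept genes did. This was ATG18 (g11431), a phosphoinositide-binding protein of the autophagosome membrane. Its levels were 53.6 FPKM at 0 h, 52.5 FPKM at 12 h, 99.6 FPKM at 72 h under NL and 105.9 FPKM at 72 h under HL, and its rank by score was 1022. At the other end was ATG4 (g4008), the protease that processes ATG8, with 14.3, 32.1, 21.7 and 21.0 FPKM and a score of 1.12. The median log2 ratio of 12 h to 0 h over the 22 ATG genes was 0.38, against 0.20 for all expressed genes. Of the 10 qRT-PCR genes 5 were kept, with scores from 0.09 to 0.52. These include SNRP (g7308), with 211, 223, 210 and 219 FPKM in the same order, and COX3 (g10280), with 295, 340, 301 and 293 FPKM. Both served in the paper as reference genes because of their stable expression, so nothing is read from their nearly level values.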

How the data were processed

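RNA of 32 libraries (4 conditions, 2 biological by 4 technical replicates) was sequenced as 50-nt single-end and 100-nt paired-end reads. Tools listed in the submitters' processing notes were RSEM 1.2.9, Bowtie 1.0.0, CASAVA 1.8, cutadapt 1.1 and DESeq (no version). Assembly and annotation versions were not given in the sources used here. For genes and transcripts alike, the deposited tables hold expected counts (not normalized), FPKM and TPM with 1 pooled value per condition. The authors added 95% intervals of FPKM and the percent of the gene's TPM held by each transcript. In every gene row the effective length equalled the length (0 rows differed). The authors also deposited mean normalized counts for each pair of conditions, scaled within that pair and so set side by side only within it. Their folds, p-values and analysis of deviance were not used.

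From these the score was computed with a pseudocount of 1 FPKM, a minimum of 10 FPKM at 0 h and a band of 1 log2 unit, in Python 3.11.15 with pandas 2.3.3 and numpy 2.4.6. The rule was also run on counts simulated with counting noise only, which checks the computation and does not bear on the spread between cultures. Groups came from the sample titles, and 0 columns of single samples were left out. With pooled values no test between replicates could be computed anew. Adding 1 FPKM understates changes of low genes. The genes named by rule were the 2 lowest scores, the 2 highest mean 72 h ratios and any member among the study's named genes. The members and lists were chosen with earlier results of these data known. Alternatives were another unit, scaling, pseudocount, minimum, band, interval ends, transcript, low-count filter and fold.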

Additional observations from a re-analysis of the deposited data

How the results depend on the processing

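No paired analysis was possible because each condition has 1 pooled value, and for the same reason no replicate could be left out. The median score of the members was -0.91. Each alternative scored the same chosen members on the same reads, so a negative median follows largely from the choice and is not read as support. Median-of-ratios scaling moved the median score to -1.12, subtracting the median ratio of all genes to -1.15 and the authors' mean normalized counts to -1.17. The members at least 2-fold lower at 12 h then numbered 67, 74 and 68 in place of 42. The share of the kept genes was 1.19% beside the 68, and beside the 67 and 74 it was not computed. With 1.5-fold and 3-fold in place of 2-fold the count on FPKM was 100 and 12. The 100 follows from where the list ends, as the last member, with a score of -0.640, was still beyond 1.5-fold. So was the first gene outside, with -0.637, and the share of the kept genes beyond 1.5-fold was not computed. Of the 100 members, 47 were among the 100 lowest scores with a minimum of 30 FPKM and 48 with a band of 0.5 log2 units, as fewer members then qualified. With TPM 77 members still qualified and 67 were among the lowest, with the mean normalized counts 85 and 77, and with 0.1 FPKM added in place of 1 FPKM 99 and 97. Other settings were chosen after seeing the data: without g10704 the count of 2-fold lower members was 41, and with the main transcript at 0 h it was also 41. The unit of replication limits all values: the depth bounds counting error, and the spread between cultures is unknown.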
